A study of Mus musculus with 96 samples.

Results

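The effect of injury at 29 days post-injury (dpi) in the hippocampus was compared within candesartan-treated mice, as TBI+CD (4 libraries) against Sham+CD (4 libraries), which are 8 of the 96 libraries of the study. Libraries were chosen by their labels alone, and all genes were examined. The study profiled RNA from 3 brain regions of male C57BL/6 mice, aged 8 to 10 weeks when obtained, at 3 or 29 dpi. Mice in the TBI group received a moderate controlled cortical impact through a craniectomy over the left cortex, while sham mice had anesthesia and scalp surgery with neither craniectomy nor impact, so the groups differ in the opening of the skull as well as in the impact. All 8 mice described here were given candesartan (CD), a blocker of the angiotensin II type 1 receptor, at 0.1 mg/kg/day. The first dose was injected at 6 h, an osmotic pump was implanted at 24 h, and the hippocampus of the injured side was taken. The vehicle arm (TBI+VH and Sham+VH) received the drug's solvent in the same way. RNA samples were sequenced after selection of the best 4 per group by RNA quality, and the labels do not say whether same-numbered libraries share a litter or a day.

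The hippocampus lies beneath the impact site, and injury there is followed by long-lasting activation of microglia, the resident macrophages of the brain, and of astrocytes. Activated microglia lower their surveillance genes and raise genes of phagocytosis, lipid handling and lysosomes, a state often called disease-associated. Reactive astrocytes raise intermediate filaments and several complement genes, and fibroblasts of the meninges and vessels can deposit collagen at the border of a lesion. Because bulk tissue was sequenced, more cells of a type and more RNA per cell cannot be told apart in any of the values below.

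Library totals ran from 6663630 counts (Sham+CD replicate 1) to 33510400 (TBI+CD replicate 2), and the other 6 libraries held between 23037200 and 33091600 counts. Levels are given as CPM, the counts of a gene scaled to a common library size. Genes of hippocampal granule neurons were present in every library, with a summed level of the 12 dentate gyrus markers of 462 to 643 CPM. Choroid plexus RNA differed between libraries within both groups. The summed level of 18 choroid plexus markers was 299.8, 234, 5427 and 371 CPM in Sham+CD replicates 1 to 4 and 5558, 3582, 1023 and 438 CPM in TBI+CD. The first principal component of the 8 libraries was led by Tmem72 and Ttr, which are choroid plexus genes. Red cell transcripts summed to 104 and 104 CPM in TBI+CD replicates 3 and 4, and to between 1.82 and 19.7 CPM in the other 6 libraries.

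Of 16832 genes tested, 60 (0.356%) were called, that is, had a Benjamini-Hochberg adjusted p (FDR) under 0.05 with an absolute log2 fold change above 0.32. Of these, 59 (0.351%) were higher in TBI+CD and 1, Malat1, was lower. DESeq2 called 166 higher and 4 lower (Grin2b, Jph1, Malat1 and Sema5a), and edgeR on the 8 libraries alone called 111 higher and 2 lower (Malat1 and Npas4). At an unadjusted p under 0.05, 1145 genes were higher and 488 lower. In all 60 genes the 4 TBI+CD values lay entirely above or entirely below the 4 Sham+CD values, a separation found in 7.94% of all genes tested. The 60 were chosen by their p in these same libraries, so this separation is no added support for the calls. Atp6v0d2, one of the risers, had no read in any Sham+CD library, and the other 58 rose 1.25-fold to 12.9-fold with a median of 2.14-fold. The number of called genes depended on single libraries. It was 30, 26, 31 and 25 without Sham+CD replicate 1, 2, 3 and 4 respectively, 26 and 33 without TBI+CD replicate 2 and 3, and 109 without Sham+VH replicate 1, which is not part of the contrast and enters the shared estimate of the spread. In all 16 fits that left out a library, 22 genes were called each time, among them C4b, C3, Lyz2, Cst7, Clec7a, Gpnmb, Itgax, Spp1, Vim, Ggta1, Anxa5, Flnc, P4ha3, Mpeg1 and Itgb2.

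**Figure D1:**
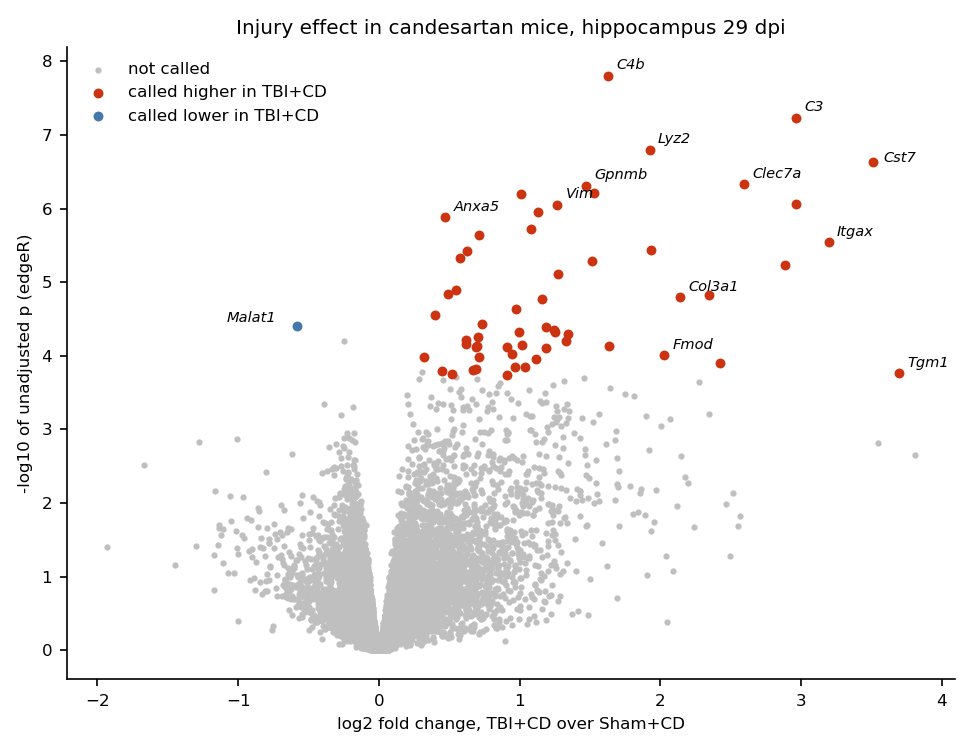
Each point is a gene tested in the hippocampus at 29 dpi, with the log2 fold change of TBI+CD over Sham+CD on the horizontal axis and minus log10 of the unadjusted p (edgeR) on the vertical axis. The called genes lie almost entirely on the right, 59 higher against 1 lower (Malat1), and Atp6v0d2, at 0 in all Sham+CD libraries, is not drawn.

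Genes of activated microglia and macrophages were among the largest rises. Of 26 disease-associated microglia genes tested, 8 rose (Itgax, Clec7a, Cst7, Spp1, Gpnmb, Lyz2, Cd68 and Tyrobp) and none fell, with a median log2 fold change of 0.43 beside -0.00 over all genes tested. In 19 of them all injured libraries were above all shams, and in 1 all were below, beside 4.76% and 3.18% of all genes tested. Gpnmb, a transmembrane glycoprotein of phagocytic microglia, measured 4.43, 3.52, 5.18 and 3.95 CPM in Sham+CD and 13.9, 12.3, 11.2 and 9.84 CPM in TBI+CD. Every injured library lay above every sham library, and Gpnmb was 2.78-fold higher (95% interval 2.11 to 3.65, adjusted p = 0.00134, edgeR). Clec7a, the pattern receptor dectin, measured 0.305, 0.163, 0.667 and 0.384 CPM in Sham+CD and 2.06, 2.73, 2.90 and 2.01 CPM in TBI+CD. The highest sham was Sham+CD replicate 3, still below the lowest injured library, and the change was 6.03-fold (95% interval 3.73 to 9.75, adjusted p = 0.00134). Itgax, the integrin CD11c, measured 0.153, 0.293, 0.121 and 0.422 CPM in Sham+CD and 2.75, 1.64, 3.94 and 1.41 CPM in TBI+CD. It varied more among injured mice than among shams, and rose 9.17-fold (95% interval 4.64 to 18.1, adjusted p = 0.00297). Cst7, an inhibitor of lysosomal cathepsins, was close to absent in shams, at 0, 0.0652, 0.121 and 0.0768 CPM, and reached 1.07, 0.821, 1.14 and 0.950 CPM after injury. Its log2 fold change was 3.51 ± 0.42 (SE, adjusted p = 0.000978), from a sham level of a few reads.

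Spp1, the secreted matrix protein osteopontin, measured 4.12, 6.48, 2.91 and 4.99 CPM in Sham+CD and 16.2, 21.0, 20.5 and 13.8 CPM in TBI+CD. The groups did not overlap, and Spp1 rose 3.82-fold (95% interval 2.51 to 5.81, adjusted p = 0.00349, edgeR). Lyz2, lysozyme of myeloid cells, measured 5.04, 4.40, 7.97 and 5.11 CPM in Sham+CD and 20.2, 26.5, 21.5 and 19.0 CPM in TBI+CD. It rose 3.80-fold (95% interval 2.73 to 5.28, adjusted p = 0.000888), although reads of its close copy Lyz1 may have been divided between both genes. Cd68, a late endosomal glycoprotein, went from 9.19 ± 1.19 to 14.3 ± 1.70 CPM (mean ± SD, n = 4 per group), a log2 fold change of 0.62 with an adjusted p of 0.0277 in edgeR, and the call was lost in 7 of the 16 fits without a library. Tyrobp, the signalling adaptor of Trem2, went from 11.3 ± 0.928 to 16.3 ± 1.81 CPM (n = 4 per group), with an adjusted p of 0.0479 in edgeR. Its call was kept in 5 of the 16 fits without a library and was lost with RLE factors and with a choroid plexus score as covariate. The most abundant list members, the cathepsins Ctsb and Ctsd, had log2 fold changes of 0.05 and 0.34 and were not called. Ctsb measured 511 CPM in shams and 531 CPM after injury.

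**Figure D2:**
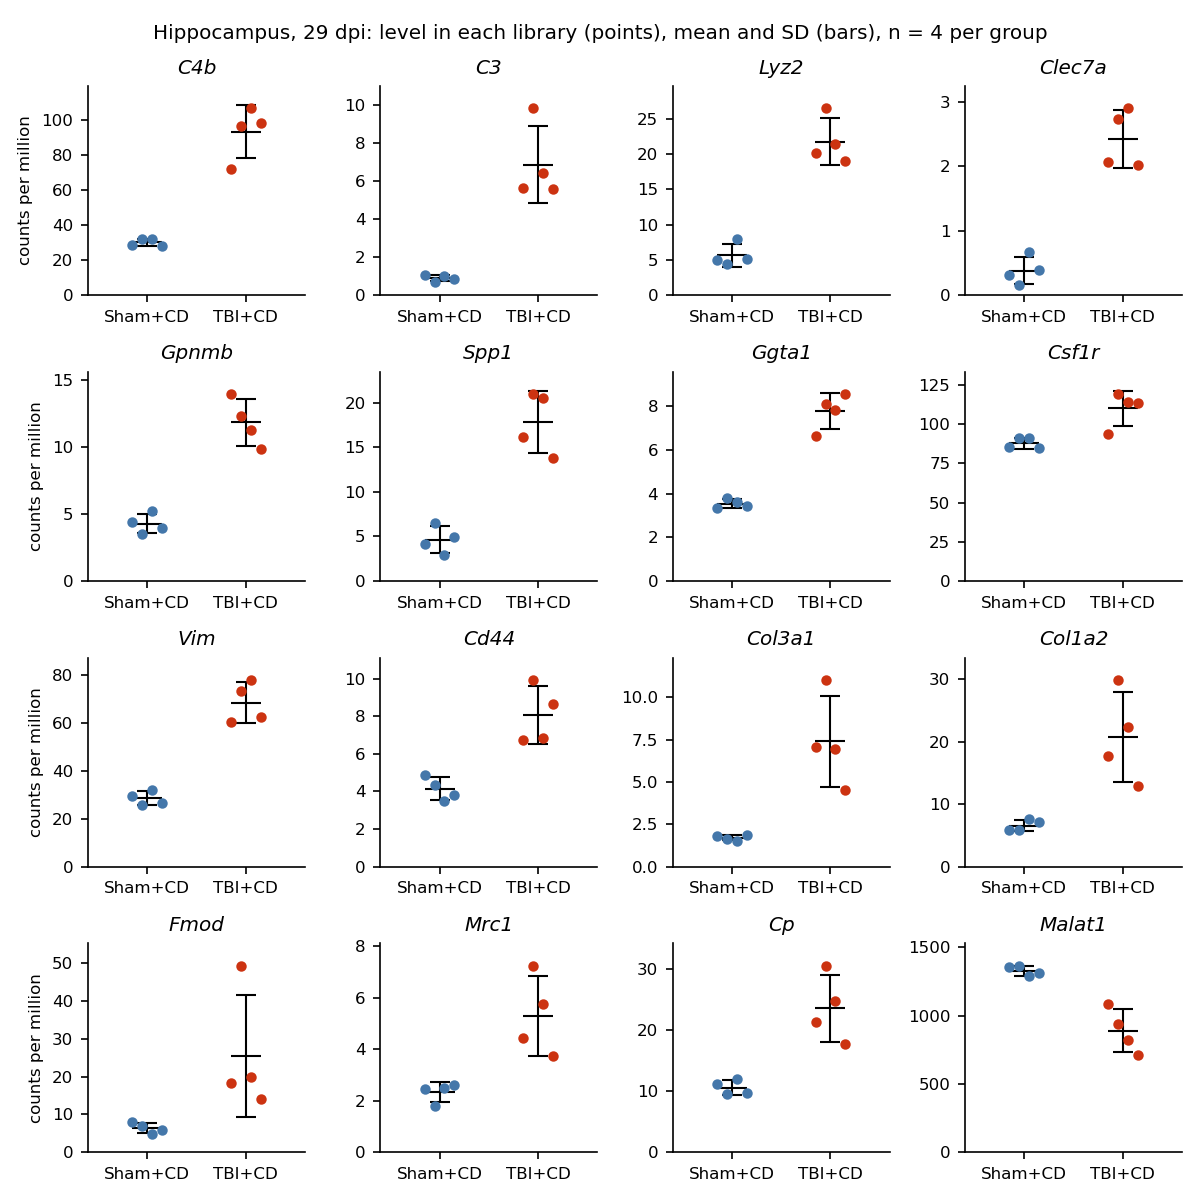
Level in CPM (vertical axes, linear from 0) of 16 called genes in each of the 4 Sham+CD (blue) and 4 TBI+CD (red) libraries, with the mean and SD of each group in black. The groups are apart in every panel, and Fmod, Col1a2, Col3a1 and Mrc1 are highest in the same injured library, TBI+CD replicate 2.

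No gene that marks surveying microglia was called lower, as was true of all but 1 of the 16832 genes tested. All 18 genes of this list had a positive log2 fold change, with a median of 0.24, and 2 of them were called higher, Csf1r among them. Csf1r, the receptor that keeps microglia alive, measured 85.3, 91.0, 90.9 and 84.5 CPM in Sham+CD and 93.6, 119, 114 and 114 CPM in TBI+CD. It rose 1.25-fold (95% interval 1.14 to 1.37, adjusted p = 0.0347, edgeR), and the call was lost in 9 of the 16 fits without a library and also with DESeq2, with RLE factors and with the 8 libraries alone. The most abundant gene of the list, Sparc, a matrix glycoprotein, had a log2 fold change of 0.26 ± 0.10 (SE) with an adjusted p of 0.368. Summed over the list, the level was 723, 766, 748 and 734 CPM in Sham+CD and 825, 914, 874 and 926 CPM in TBI+CD.

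Phagocytic and lysosomal genes included further risers. Of 19 genes of Fc receptors and phagocytosis, 3 rose: Fcer1g, the common Fc receptor gamma chain, Itgb2, the integrin chain CD18, and Ptprc, the leukocyte phosphatase CD45. Without a library in turn the Fcer1g call was lost in 13 of 16 fits and the Ptprc call in 6, while Itgb2 was called in all. Both Fcer1g and Ptprc were also lost without the filter and with the 8 libraries alone, Fcer1g with RLE factors and Ptprc with a choroid plexus score as covariate. Their log2 fold changes were 0.45, 0.63 and 0.72, and all 19 members tested had positive values with a median of 0.52. The most abundant members, Laptm5, a lysosomal protein of leukocytes, and Itgam, the integrin CD11b, had log2 fold changes of 0.29 and 0.13 and were not called. Of 20 lysosome genes, 2 rose, the protease Ctsh among them, and the list median was 0.24. Ctsh went from 8.21 ± 1.33 to 12.6 ± 1.08 CPM (n = 4 per group), with an adjusted p of 0.0263 in edgeR, and its call was lost in 5 of 16 fits without a library.

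Complement genes included the clearest rise. C4b encodes the fourth component and is expressed by astrocytes and microglia after injury, at chr17:34728380-34743882 (GRCm38). It had the smallest adjusted p of all genes. Its level was 28.4, 32.1, 31.9 and 27.9 CPM in Sham+CD and 72.0, 96.5, 107 and 98.3 CPM in TBI+CD. The shams lay close together, and the lowest injured library, replicate 1, was above all of them. C4b rose 3.09-fold (95% interval 2.44 to 3.92, adjusted p = 0.000264, edgeR). Its near copy C4a measured 4.58, 4.76, 4.61 and 4.26 CPM in shams and 7.25, 6.48, 6.22 and 6.39 CPM after injury, and how the counting divided reads between the copies is not given in the sources used here. C3 (chr17:57203970-57228136), on which all complement pathways converge, measured 1.07, 0.717, 1.0 and 0.845 CPM in Sham+CD and 5.62, 9.82, 6.41 and 5.59 CPM in TBI+CD. It rose 7.80-fold (95% interval 4.86 to 12.5, adjusted p = 0.000488). Serping1, the C1 inhibitor, measured 5.80, 6.26, 5.82 and 6.37 CPM in Sham+CD and 12.5, 21.8, 13.2 and 10.1 CPM in TBI+CD and rose 2.37-fold (adjusted p = 0.0229), a call lost in 6 of 16 fits without a library. With Itgb2, 4 of 17 complement genes rose and none fell, and the list median was 0.63. C1qa, a chain of the initiating C1 complex and the next most abundant member, had a log2 fold change of 0.45 ± 0.12 (SE) with an adjusted p of 0.135.

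Antigen presentation and innate sensing held a single call. Among 13 class I genes, H2-D1 rose 1.47-fold, from 21.0 ± 0.728 to 30.7 ± 2.90 CPM (n = 4 per group, adjusted p = 0.00927, edgeR), a gene of a family with near-identical members. Its partner B2m had a log2 fold change of 0.29 with an adjusted p of 0.0522. No class II gene was called, but the median over the 8 tested was 1.004. Cd74, the invariant chain, measured 0.763, 1.30, 2.18 and 1.92 CPM in shams and 3.95, 6.77, 5.01 and 2.55 CPM after injury (adjusted p = 0.146), whereas H2-DMa had a log2 fold change of -0.10. No gene was called among 18 genes of the type I interferon response (median 0.69) or among 14 Toll-like receptors and adaptors (median 0.50). The transcription factor Stat2 had a log2 fold change of 0.04, and Tlr3 and Ly86 of 0.16 and 0.41. Of 18 genes of T and natural killer cells, 4 passed the filter on low counts and none was called, with Lck at a log2 fold change of 0.10 and Cd52 at 1.31 (adjusted p = 0.0551).

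Reactive astrocyte genes were the list with the most calls. Of 22 tested, 9 rose (Vim, Ggta1, Osmr, Cp, Cd44, Gbp2, Aspg, S1pr3 and Tgm1), none fell, and the median was 0.94. Vim, the intermediate filament vimentin, measured 29.3, 25.7, 32.1 and 26.7 CPM in Sham+CD and 60.1, 73.1, 77.8 and 62.5 CPM in TBI+CD. The groups did not overlap, and Vim rose 2.41-fold (95% interval 1.88 to 3.09, adjusted p = 0.00149, edgeR). Gfap, the classical astrocyte filament, measured 316, 326, 308 and 338 CPM in shams and 488, 629.9, 667 and 621 CPM after injury. Its groups did not overlap either, with a spread of ± 78.4 CPM (SD, n = 4) after injury. Its adjusted p was 0.115 in edgeR, and Gfap was not called. The vehicle libraries enter the shared estimate of the spread. There the astrocyte list summed to 2017 CPM in TBI+VH replicate 3, against 843 to 1215 CPM in the other TBI+VH libraries. The part of these libraries in the missed call was not tested. Ggta1, a galactosyltransferase, went from 3.54 ± 0.192 to 7.79 ± 0.815 CPM (n = 4 per group, adjusted p = 0.00171, edgeR). Osmr, the oncostatin M receptor, went from 4.27 ± 0.459 to 8.4952 ± 1.10 CPM (n = 4 per group, adjusted p = 0.0137, edgeR). Cd44, the hyaluronan receptor, rose 1.99-fold, the guanylate-binding protein gene Gbp2 2.28-fold, the asparaginase Aspg 2.16-fold, and S1pr3, a sphingosine 1-phosphate receptor, 1.61-fold. Of the 16 fits without a library, the call was lost in 4 for Osmr, 4 for Cd44, 6 for Gbp2, 7 for Aspg, and 10 each for S1pr3 and Tgm1. Tgm1 was also lost with RLE factors. Tgm1, a transglutaminase, was listed at 0, 0.0652, 0.0606 and 0 CPM in shams and at 0.601, 0.410, 0.911 and 0.456 CPM after injury. Serpina3n, a secreted protease inhibitor, had a log2 fold change of 0.16 and was not called. Of 15 genes of resting astrocyte function none was called and the median was 0.13, with the glutamate transporter Slc1a2 at 0.07 and glutamine synthetase Glul at 0.08.

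Some matrix genes were also among the risers, and Fmod and Aebp1, named below, are on no list. Of 20 fibroblast and matrix genes, Col3a1, Col1a2 and Fbln5 rose and none fell, with a median of 0.62. Col3a1, a fibrillar collagen, measured 1.83, 1.63, 1.52 and 1.84 CPM in Sham+CD and 7.08, 11.0, 6.93 and 4.52 CPM in TBI+CD, and rose 4.40-fold (95% interval 2.60 to 7.44, adjusted p = 0.0104, edgeR). Col1a2 measured 5.80, 5.80, 7.58 and 7.14 CPM in Sham+CD and 17.8, 29.9, 22.3 and 12.9 CPM in TBI+CD, a 3.11-fold rise (95% interval 1.96 to 4.93, adjusted p = 0.0277). Both were highest in TBI+CD replicate 2. The Col3a1 call was lost in 3 of 16 fits without a library, those of Col1a2, Fbln5, Aebp1 and Mrc1 in 6 each, and that of Cp in 3. Fbln5, an organiser of elastic fibres, rose 2.51-fold (adjusted p = 0.0263). Fmod, a collagen-binding proteoglycan, measured 7.94, 6.94, 4.97 and 5.95 CPM in shams and 18.4, 49.2, 19.8 and 14.1 CPM after injury, with a mean of 25.4 ± 16.1 CPM (SD, n = 4) after injury. TBI+CD replicate 2 was far above the others, and the call was lost without it and without any of 6 other libraries, one at a time, and also with a choroid plexus score as covariate. Aebp1, a matrix-associated carboxypeptidase-like protein, measured 14.7, 13.8, 13.1 and 12.2 CPM in shams and 30.2, 50.9, 31.9 and 21.8 CPM after injury (2.54-fold, adjusted p = 0.0239). Mrc1, the mannose receptor of border macrophages, measured 2.44, 1.79, 2.52 and 2.61 CPM in Sham+CD and 4.42, 7.24, 5.76 and 3.72 CPM in TBI+CD, rose 2.28-fold (adjusted p = 0.0215) and was the sole call among 10 genes of infiltrating and border macrophages, whose median was 1.05. Stab1, a scavenger receptor of such cells, had a log2 fold change of 0.57 with an adjusted p of 0.0665. Cp, the copper ferroxidase ceruloplasmin, which is on the astrocyte list and is also made by choroid plexus, measured 11.1, 9.48, 12.003 and 9.75 CPM in shams and 21.3, 30.5, 24.8 and 17.6 CPM after injury (2.24-fold, adjusted p = 0.0106).

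RNA of structures that border the hippocampus varied between the libraries. The most abundant matrix genes were not called, since Col4a2, a basement membrane collagen, had a log2 fold change of -0.09, and Igf2, made by meninges and choroid plexus, measured 41.2, 36.4, 118 and 33.6 CPM in Sham+CD and 187, 218, 85.6 and 65.0 CPM in TBI+CD. The summed level of the matrix list was 660.4, 537, 687 and 543 CPM in Sham+CD and 793, 978, 681 and 711 CPM in TBI+CD. No gene was called among 18 choroid plexus genes (median 1.06), 16 genes of motile cilia and ependyma (median 0.76), 12 pericyte and smooth muscle genes (median 0.60) or 18 endothelial genes (median 0.38). Ttr and Enpp2, the most abundant choroid plexus genes, had log2 fold changes of 0.57 ± 1.52 and 0.93 ± 0.999 (SE), and both changed sign when a choroid plexus score entered the fit. Foxj1, the master factor of motile cilia, and Dnah9, a ciliary dynein, were at 0.81 and -0.14. Vtn and Pdgfrb of pericytes were at 0.60 and 0.14, and Slc2a1 and Itm2a of endothelium at 0.42 and 0.38. The hemoglobin genes Hba-a2 and Hbb-bs, with log2 fold changes of 2.47 and 2.55, were not called. With a choroid plexus score as a covariate 61 genes were called and 54 of the 60 remained, while Birc3, Col9a2, Fmod, Ptprc, Tgif1 and Tyrobp were lost. With a fibroblast and matrix score as a covariate, an alternative chosen after seeing the data, 8 genes were called, all among the 60. They were Atp6v0d2, C3, C4b, Cst7, Itgax, Lag3, Mpeg1 and Tgm1. The score holds Col1a2, Col3a1 and Fbln5 themselves. Of 59 called genes examined in that fit, 38 kept a log2 fold change of at least 0.8 times their value without the score, and 9 fell under 0.5 times. Without and with the score Gpnmb was at 1.47 and 1.40, Vim at 1.27 and 1.26, Lyz2 at 1.93 and 1.67, and Clec7a at 2.59 and 2.44. Col1a2 was at 1.64 and 0.53, Fmod at 2.03 and 0.58, Aebp1 at 1.34 and 0.41, and Serping1 at 1.25 and 0.51. Leaving out the 3 candesartan libraries richest in choroid plexus RNA (Sham+CD replicate 3 and TBI+CD replicates 1 and 2) left 14 calls, 13 of them among the 60 (among others, C3, C4b, Clec7a, Csf1r, Cst7, Ggta1, Gpnmb, Lilrb4, Lyz2, Mpeg1, Vim and Malat1), also an alternative chosen after seeing the data. Of the 59 risers, 38 were highest in TBI+CD replicate 2, the library with the most matrix RNA. The part of border tissue in these calls was not tested beyond these fits.

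**Figure D3:**
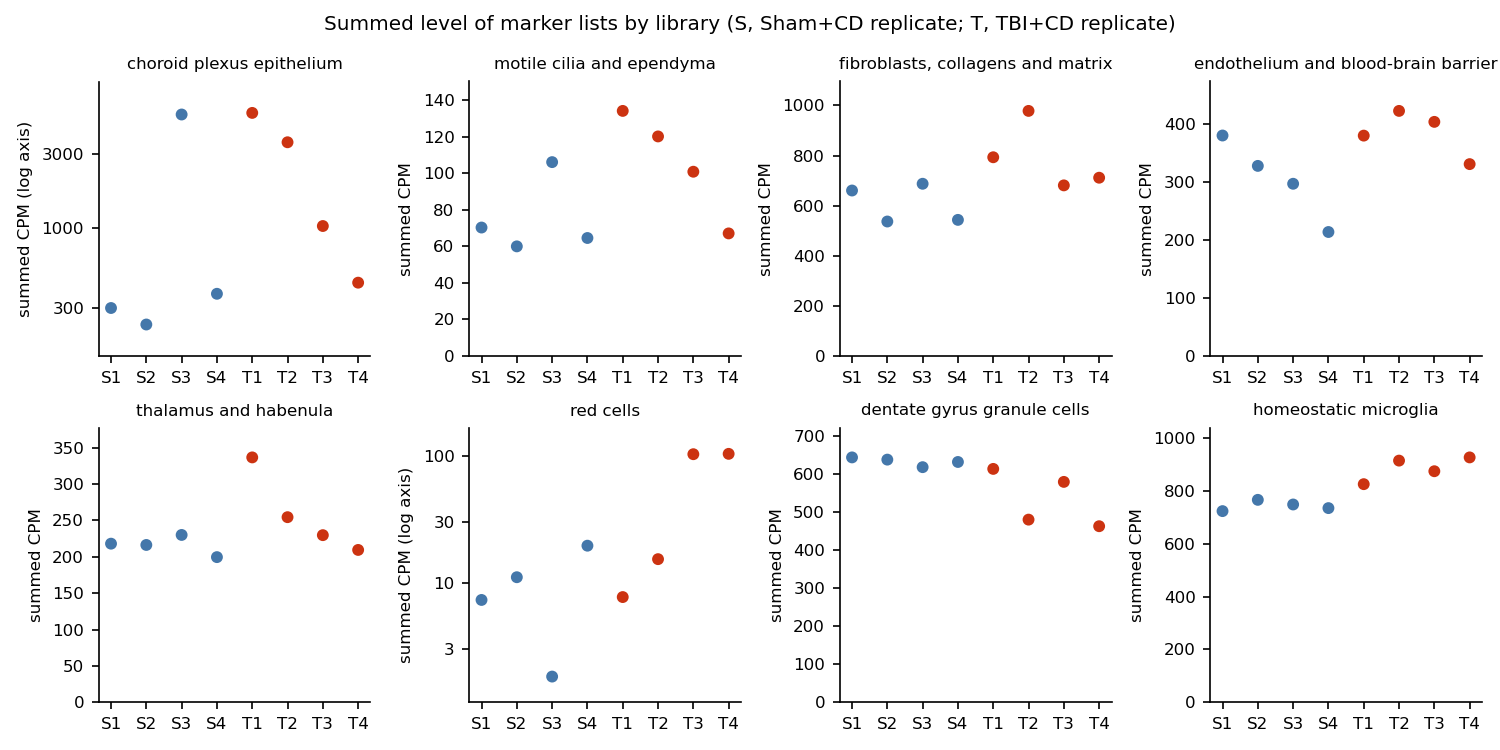
Summed level (CPM) of 8 marker lists in each Sham+CD library (S1 to S4, blue) and TBI+CD library (T1 to T4, red), with log axes for choroid plexus and red cells and axes from 0 for the others. Choroid plexus RNA is high in 1 sham and 2 injured libraries, red cell RNA in TBI+CD replicates 3 and 4, matrix RNA in TBI+CD replicate 2, and microglial RNA lies higher in every injured library than in every sham.

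The single gene called lower in the edgeR fit of 16 libraries was Malat1, an abundant long non-coding RNA of the nucleus (chr19:5795690-5802672, GRCm38). It measured 1353, 1365, 1286 and 1309 CPM in Sham+CD and 1083, 937, 822 and 714 CPM in TBI+CD. The shams lay close together and every injured library lay below them. The log2 fold change was -0.58 ± 0.11 (SE, adjusted p = 0.0214, edgeR), and the call was lost in 6 of 16 fits without a library. The other 11 nuclear non-coding RNAs were not called. Meg3 and Snhg11, the most abundant, had log2 fold changes of 0.02 and 0.09.

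No gene of the neuronal lists was called in the edgeR fit of 16 libraries. Grin2b, an NMDA receptor subunit, had a log2 fold change of -0.62 ± 0.17 (SE, adjusted p = 0.156) in that fit and was called lower by DESeq2 and by edgeR without TBI+CD replicate 1. It and Npas4 are named after their values were seen. Of 18 pan-neuronal genes, 17 had negative log2 fold changes, the median was -0.11, and 7 had all injured libraries below all shams, while over all genes tested 50.4% of log2 fold changes were negative and 3.18% had the injured libraries below. Camk2a, a kinase of excitatory synapses, and Snap25, of the release machinery, were at -0.18 and -0.14 (adjusted p = 0.4 and 0.629, edgeR). All 12 dentate granule cell genes had negative values with a median of -0.28. Their summed level was 643, 637, 617 and 631 CPM in Sham+CD and 613, 479.7, 579 and 462 CPM in TBI+CD, without overlap, and lowest in TBI+CD replicates 2 and 4. No gene was called in the lists of interneurons, pyramidal cells, progenitors, cell cycle, oligodendrocyte precursors, neocortex, chemokines, neutrophils or B cells. Within the dentate list Calb1 was at -0.03 and Stxbp6 at -0.23 (adjusted p = 0.249). Immediate early genes had a median of -0.24 over 19 tested and no call in that fit. Npas4, an activity-induced transcription factor, was at -0.67 ± 0.24 (SE, adjusted p = 0.313) and was called lower with the 8 libraries alone. Arc and Egr1, which neuronal activity induces, measured 152 and 133 CPM in shams and 118 and 101 CPM after injury (adjusted p = 0.449 and 0.462). Myelin genes had a median of 0.16, with Mbp at 0.13 and lowest in TBI+CD replicate 2. Thalamic and habenular markers, a sign of the adjoining region, had a median of 0.30 and a summed level of 336 CPM in TBI+CD replicate 1 against 199.5 to 230.0 CPM in the shams. Of this list Nwd2 was at a log2 fold change of 0.05 and Rora at 0.38. Adding a score of these markers to the fit, also an alternative chosen after seeing the data, left 32 calls, of which 30 were among the 60.

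**Figure D4:**
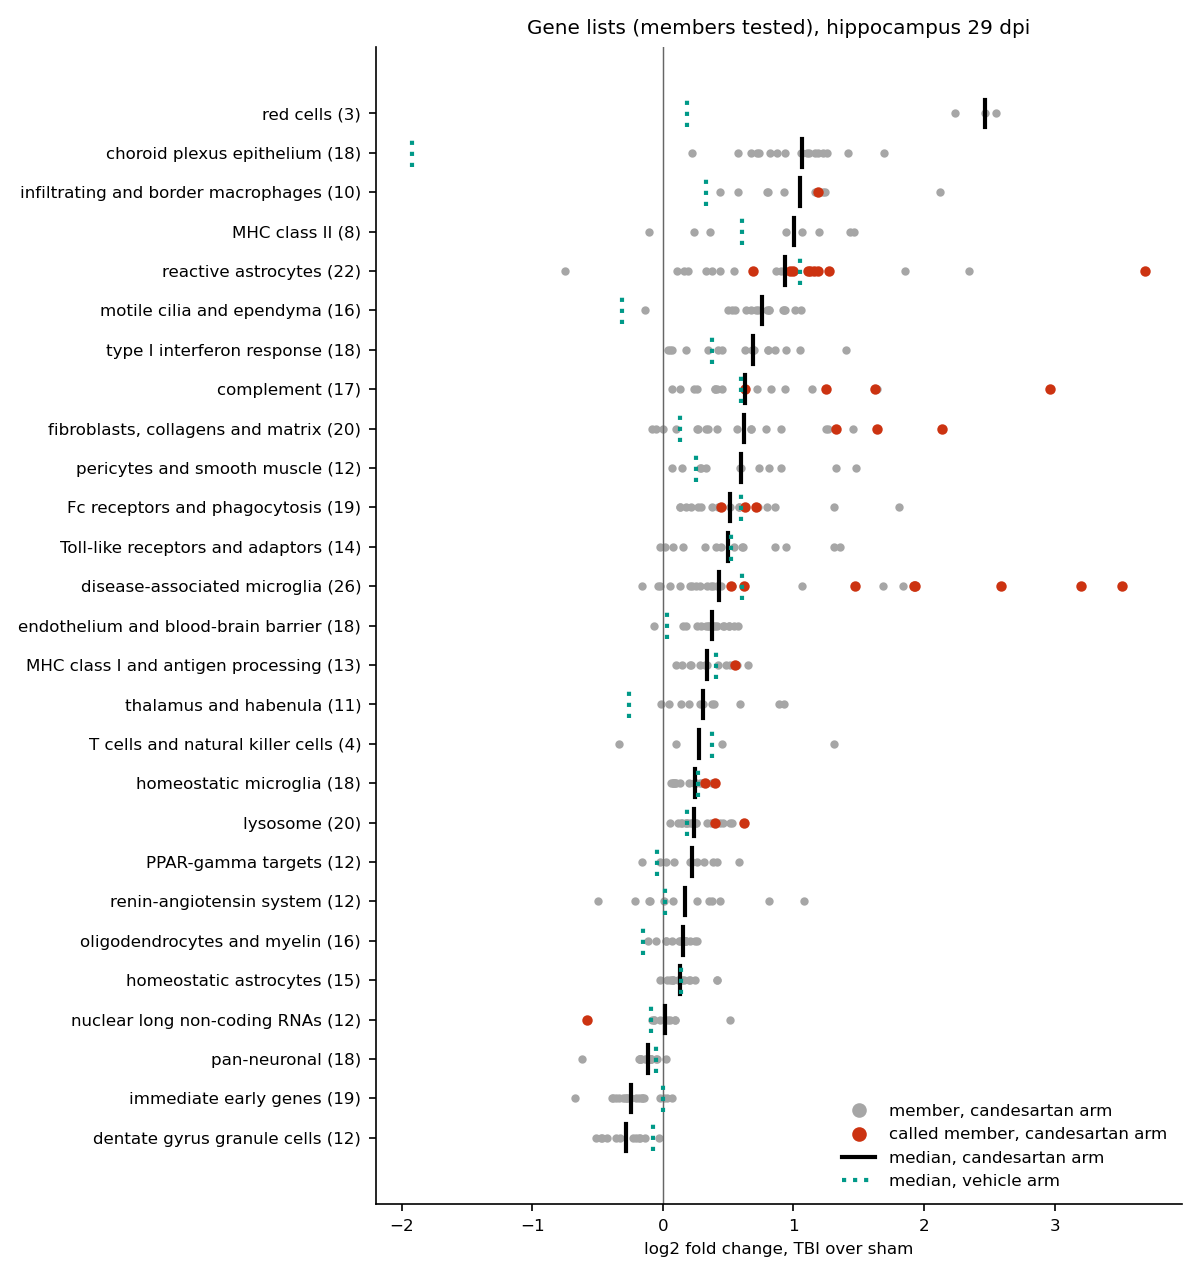
Log2 fold change (horizontal axis) of each tested member of 27 gene lists in TBI+CD over Sham+CD, with called members in red, the list median as a black bar and the median of TBI+VH over Sham+VH as a dotted bar. The disease-associated microglia medians lie at 0.43 and 0.60, those of reactive astrocytes at 0.94 and 1.05, and those of choroid plexus at 1.06 and -1.92.

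Transcripts of the drug's target were scarce. Agtr1a, the main angiotensin II type 1 receptor, measured 1.22, 0.456, 1.15 and 0.691 CPM in Sham+CD and 0.772, 0.528, 0.814 and 0.228 CPM in TBI+CD (log2 fold change -0.50 ± 0.38, SE, adjusted p = 0.734, edgeR), and Agtr1b, with 0 to 4 counts per library, did not pass the filter on low counts. None of 12 genes of the renin-angiotensin system was called, with a median of 0.17. The (pro)renin receptor gene Atp6ap2 was at 0.01 and Mas1, the receptor of angiotensin-(1-7), at -0.11. No gene was called among 12 targets of PPAR-gamma (median 0.22), among them the fatty acid oxidation gene Cpt1a (0.26).

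Beyond the lists, Flnc, an actin crosslinker, measured 2.75, 2.31, 1.85 and 1.54 CPM in Sham+CD and 5.32, 6.33, 5.92 and 5.70 CPM in TBI+CD and rose 2.88-fold (adjusted p = 0.00134, edgeR). P4ha3, a collagen prolyl hydroxylase, rose 2.01-fold (adjusted p = 0.00134), and Anxa5, a phospholipid-binding annexin, rose 1.39-fold with little spread, from 42.0 ± 2.15 to 58.5 ± 3.73 CPM (SD, n = 4 per group, adjusted p = 0.00183). Mpeg1, the pore-forming perforin-2 of macrophages, measured 18.5, 21.2, 25.9 and 20.3 CPM in shams and 31.7, 35.1, 37.9 and 38.1 CPM after injury (1.64-fold, adjusted p = 0.00255). Other called genes lie outside the rule by which genes were named and are given here having been chosen after their values were seen. Atp6v0d2, a subunit of the vacuolar proton pump, had 42 reads over the 4 TBI+CD libraries and 0 over the 4 Sham+CD libraries, which is at least 12.2-fold higher against a floor of 3 reads over the sham group. Siglec1, a macrophage lectin, and Lilrb4, an inhibitory myeloid receptor with a near copy, had log2 fold changes of 2.89 and 2.96. Lag3, an inhibitory immune receptor, rose 1.62-fold, Anxa2 2.12-fold, Apod, a lipocalin, 1.63-fold, Thbs4, an astrocytic thrombospondin, 2.02-fold, Abca1, a cholesterol exporter, 1.40-fold and Birc3, an inhibitor of apoptosis, 1.93-fold. Of the 16 fits without a library, the call was lost in 7 for Lag3, 6 for Apod, 7 for Thbs4, 1 for Abca1 and 8 for Birc3, which was also lost with the 8 libraries alone.

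Promoter sequence was set beside the called genes. In windows from 250 bases before to 50 bases after annotated starts (RefSeq, GRCm38.p6), 46 of the 59 risers had an entry. The letters TGACTCA of an AP-1 element, on either strand, were in 6 of them (13.043%), which were Anxa2, Cd68, Ctla2b, Gbp2, Gpnmb and Itgax, and in 4.58% of the 11620 tested genes with an entry. The letters GAAANNGAA of interferon response elements were in 5 (10.9%, beside 8.57%), and GAGGAAGT of PU.1 in 1, Spp1 (2.17%, beside 3.29%). A match describes the sequence alone. The windows of Itgax and Gpnmb, microglial risers described above, are shown 5′ to 3′ with the AP-1 letters, on either strand, in capitals.
Itgax, chr7:128129300-128129599, plus strand: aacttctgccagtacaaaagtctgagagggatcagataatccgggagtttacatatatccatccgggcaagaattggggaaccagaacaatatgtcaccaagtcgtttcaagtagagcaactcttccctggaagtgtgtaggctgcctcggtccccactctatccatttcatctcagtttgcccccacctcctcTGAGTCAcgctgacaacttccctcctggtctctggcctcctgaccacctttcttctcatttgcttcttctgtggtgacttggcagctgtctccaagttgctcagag
Gpnmb, chr6:49036268-49036567, plus strand: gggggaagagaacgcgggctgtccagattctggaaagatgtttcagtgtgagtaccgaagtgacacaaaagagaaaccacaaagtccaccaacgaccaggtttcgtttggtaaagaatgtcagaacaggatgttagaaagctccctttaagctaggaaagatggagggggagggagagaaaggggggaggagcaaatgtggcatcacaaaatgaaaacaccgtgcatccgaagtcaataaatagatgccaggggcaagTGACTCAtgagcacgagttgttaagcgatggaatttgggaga

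The same contrast in vehicle mice (TBI+VH against Sham+VH, 4 libraries each, none shared with the candesartan arm) called 89 of 16832 genes (0.529%), of which 88 were higher. With the 8 libraries of each arm alone, 42 genes were called higher in vehicle mice and 111 in candesartan mice. With DESeq2 these counts were 132 and 166, so which arm had more calls depended on the fit. All 60 genes called in candesartan mice had the same sign in vehicle mice, beside 54.9% of all genes tested. Of the 60, 53 had an unadjusted p under 0.05 there, beside 7.98% of all genes, and 39 were called in both arms, which is 65.0% of the candesartan list and 43.8% of the vehicle list. C3, C4b, Flnc, Gpnmb, Lyz2 and Vim were called in both arms. C3 had a log2 fold change of 2.96 in the candesartan arm and 2.83 in the vehicle arm, C4b 1.63 and 1.85, and Flnc 1.53 and 1.53. Gpnmb was at 1.47 and 2.33, Lyz2 at 1.93 and 2.67, and Vim at 1.27 and 1.73. Among others, Serping1, Col1a2, Fbln5 and Mrc1 were not called in vehicle mice. Serping1 was at 1.25 and 0.79. Col1a2 was at 1.64 and 0.14, Fbln5 was at 1.33 and 0.18, and Mrc1 was at 1.19 and 0.28. Border tissue RNA also differed among the vehicle libraries. In vehicle shams 1 to 4 the choroid plexus list summed to 11422, 442, 305 and 6308 CPM, beside 330.0, 3675, 179.6 and 687 CPM in TBI+VH. The matrix list summed to 975 CPM in Sham+VH replicate 1, 564 to 651 CPM in the other vehicle shams and 573 to 889 CPM in TBI+VH. The part of these levels in the difference between the arms was not tested.

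**Figure D5:**
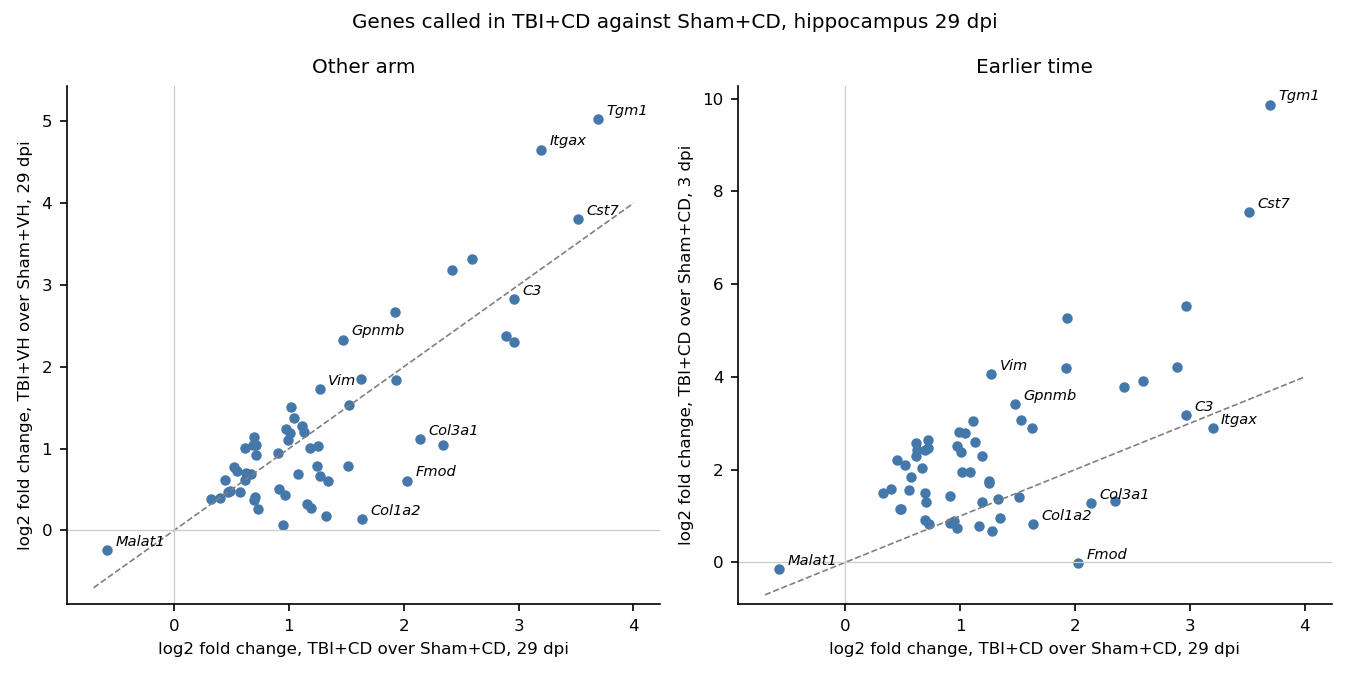
Fitted log2 fold change of the called genes other than Atp6v0d2 in TBI+CD over Sham+CD at 29 dpi (horizontal axes) against TBI+VH over Sham+VH at 29 dpi (left) and TBI+CD over Sham+CD at 3 dpi (right), with the line of equal change dashed. Col1a2 and Fmod lie well below the line in both panels, and most other genes lie above it at 3 dpi.

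The test of the difference between the arms called 0 of 16832 genes (0%) in edgeR, where 890 genes had an unadjusted p under 0.05 and the smallest adjusted p was 0.513, while DESeq2 called 4 (Nab2, Rora, Lmo3 and Zic1). Missing the threshold does not show that the arms responded alike. Among the 60 genes, 16 had an unadjusted interaction p under 0.05 with an adjusted p of at least 0.892. Of these, 11 had the larger change in candesartan mice (Aebp1, Birc3, Col1a2, Col5a3, Cp, Fbln5, Fgfbp1, Fmod, Malat1, Mrc1 and Sctr) and 5 the smaller (Cd68, Gpnmb, Lag3, Lyz2 and Mpeg1). The 60 genes were chosen by their change in candesartan mice, which also enters the interaction, so this division is no evidence of a direction. Chosen by the vehicle arm instead, 80 of the 89 genes called there had the smaller change in candesartan mice (median log2 fold change 0.62 against 0.95), 15 of the 89 had an unadjusted interaction p under 0.05, and that choice leans the other way. Of the 60, 30 had the smaller change in candesartan mice. Of the 20 risers not called in vehicle mice, 18 were highest in TBI+CD replicate 2, and of the 39 called in both arms, 20. For Gpnmb the difference between the arms, candesartan minus vehicle, was -0.86 on the log2 scale (95% interval -1.42 to -0.30, unadjusted p = 0.0047, edgeR), for Lyz2 -0.74 (95% interval -1.41 to -0.08), for C4b -0.22 (95% interval -0.70 to 0.25) and for Vim -0.46 (95% interval -0.96 to 0.04). For Col1a2 it was 1.497 (95% interval 0.58 to 2.42, unadjusted p = 0.00317, edgeR). The levels behind this last value were 13.4 CPM in the vehicle shams and 15.4 CPM in their injured counterparts, beside 6.58 CPM in Sham+CD and 20.7 CPM in TBI+CD, so that the mean of the vehicle shams was higher than that of the candesartan shams while their libraries overlapped. Sham+VH replicate 1 had the highest Col1a2 of its group, at 22.9 CPM against 6.74 to 14.5 CPM. The 3 genes with the smallest interaction p were Nab2, a corepressor of early growth response factors (-0.17 in the candesartan arm and 0.30 in the vehicle arm), the nuclear receptor gene Rora (0.38 and -0.52) and Lmo3 (-0.27 and 0.16), none of them past the adjusted threshold in edgeR. Rora is on the thalamus and habenula list, and its highest levels in the 2 arms were 53.6 CPM in TBI+CD replicate 1 and 60.7 CPM in Sham+VH replicate 2. Those libraries also had the highest sums of that list, 336 and 373 CPM, against 219 to 250.4 CPM in the other vehicle shams. Without these libraries Rora measured 37.8 to 39.8 CPM in TBI+CD, 31.2 to 34.8 CPM in Sham+CD, 38.7 to 42.9 CPM in Sham+VH and 27.5 to 34.7 CPM in TBI+VH.

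At 3 dpi the same contrast in the hippocampus called 3360 of 16756 genes (20.1%) in separate libraries, 2410 of them higher and 950 lower. Of the 60 genes called at 29 dpi, 59 were tested at 3 dpi and 55 were called higher there, while Col1a2, Fgfbp1, Fmod and Malat1 were not called. The difference between times was tested in the 16 candesartan libraries and passed in 1260 of 16736 genes (7.53%). The times also differ in the route of the drug, the length of treatment and the age at sampling. Among the genes called at 29 dpi, 31 had a smaller change at 29 dpi than at 3 dpi and 1, Fmod, a larger one. Vim had a mean of 534 CPM in TBI+CD at 3 dpi and 68.4 CPM at 29 dpi over shams of 31.9 and 28.5 CPM (log2 difference -2.79, adjusted p = 3.01e-06, edgeR). For C4b the difference was -1.27, for Csf1r -1.17, for Ctsh -1.67, for Itgb2 -1.78, for Tyrobp -1.57 and for Fcer1g -1.76, and all passed the test. C3 and Itgax had log2 differences of -0.20 and 0.31 that did not pass (adjusted p = 0.827 and 0.831). C3 stood at 10.1 CPM in TBI+CD at 3 dpi and 6.86 CPM at 29 dpi. Fmod measured 6.01 CPM in shams and 5.99 CPM in injured mice at 3 dpi, and the difference in its injury effect between times was 2.07 (adjusted p = 0.0375).

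In the thalamus of candesartan mice at 29 dpi 0 of 16957 genes (0%) were called in edgeR. An unadjusted p under 0.05 was reached by 1549 genes, and DESeq2 called 15, Cst7, Itgax and Lag3 among them. Without TBI+CD replicate 1 of the thalamus edgeR called 13, with the same 3 genes among them. In the hypothalamus 0 of 17165 genes (0%) were called, with 1103 at an unadjusted p under 0.05 and 1, Ildr2, called by DESeq2. Of the 58 hippocampal genes that were also tested in the thalamus, 53 had a positive log2 fold change there (beside 51.5% of all genes tested), with C4b at 1.08, Lyz2 at 1.61, Gpnmb at 2.68 and Clec7a at 3.04, and Vim at 0.31, and none of the 58 was called there by edgeR on all 16 thalamic libraries.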

How the data were processed

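Whole-number counts per gene were analysed as the authors deposited them. Per the labels and the study's methods, stranded poly(A) libraries were read paired-end, aligned to mm10 with MapSplice and counted with HTSeq 0.9.1. The annotation and strand setting of the counting are not given in the sources used here, so values of paralogs and overlapping genes are uncertain. The deposited table lists 32594 genes. The 16 hippocampal libraries of 29 dpi were fitted together, with filterByExpr, TMM scaling and edgeR 4.0.16 (R 4.3.3; quasi-likelihood, 2-sided), adjusted by Benjamini-Hochberg over 16832 genes. Differences between times used the 16 candesartan libraries. SE is the log2 fold change divided by the square root of F, and 95% intervals follow from it. CPM used TMM-scaled library sizes. P-values set the difference between groups against a spread that is estimated from all libraries of a fit and partly shared across genes. The edgeR and DESeq2 fits were tested on simulated counts with 200 changed genes. For the candesartan contrast edgeR found 175 of them with 7 false calls, and DESeq2 found 173 with 24 false calls. The edgeR interaction test found 20% of changes of 0.5 and 72% of changes of 1 on the log2 scale. Named genes were, among called genes of at least 1 CPM, the 12 largest rises and falls and the 10 smallest FDR, with called list members, the 2 most abundant members of each list described, the 4 genes measured by qPCR, the drug's receptors, the 3 smallest interaction p and up to 10 genes of the time test. Some genes that this rule names are not reported here. Members and lists were chosen with earlier results of these data known. Alternatives were DESeq2 1.42.0, RLE factors, no filter, FDR alone, 8 libraries alone, a replicate block, marker scores as covariates and each library left out. Coordinates are from GENCODE vM21 by symbol (106 of 107 genes matched).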

Additional observations from a re-analysis of the deposited data

Results flagged for a closer look

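In groups of 4 libraries, 12 of 268 groups tested held a library that stood apart from the other 3 by Dixon's criterion, where chance gives about 1 in 20. After injury these were Birc3 in TBI+CD replicate 4 (1.56 CPM), Fmod in TBI+CD replicate 2 (49.2 CPM), Tnfrsf1b in TBI+CD replicate 3 (4.13 CPM), Glul in TBI+CD replicate 3 (1704 CPM), Arc in TBI+CD replicate 2 (137 CPM) and Rora in TBI+CD replicate 1 (53.6 CPM). In shams they were H2-DMa in Sham+CD replicate 1 (14.2 CPM), and, in Sham+CD replicate 3, Igf2 (118 CPM), Ttr (3683 CPM), Enpp2 (1354 CPM), Snhg11 (2031 CPM) and the summed choroid plexus markers (5427 CPM).

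The injury effect differed between 29 and 3 dpi in candesartan mice for 31 of the called genes described here (edgeR, adjusted p under 0.05). It was larger at 29 dpi for Fmod, by 2.07 on the log2 scale. It was smaller at 29 dpi for the others, with log2 differences, 29 minus 3 dpi, of Vim -2.79, Ctsh -1.67, Csf1r -1.17, C4b -1.27, Itgb2 -1.78, Tyrobp -1.57, Fcer1g -1.76, Mpeg1 -1.93, Aspg -1.92, S1pr3 -1.72, Capg -1.73, H2-D1 -1.01, Ptprc -1.75, Ggta1 -1.46, Cd68 -1.96, Gpnmb -1.94, Flnc -1.52, Msn -1.26, P4ha3 -1.35, Osmr -1.53, Lyz2 -2.26, Anxa5 -0.66, Tnfrsf1b -1.37, Abca1 -0.67, Cst7 -4.04, Lag3 -0.78, Cd44 -1.81, Spp1 -3.33, Thbs4 -0.92 and Gbp2 -1.09. The route of the drug, the length of treatment and the age at sampling differed between the times. Their part in these differences cannot be told apart from that of time since injury.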

How the results depend on the processing

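Of the 60 calls, 4 (C3, C4b, Cst7 and Mpeg1) held in every alternative run and 22 in every fit without a library. The count of calls was 170 with DESeq2 (58 shared), 113 with the 8 libraries alone (53 shared), 32 with a thalamus and habenula score (30 shared), 8 with a fibroblast and matrix score and 14 without the 3 libraries richest in choroid plexus RNA, and 25 to 109 with a library left out. With the replicate block it was 65 (52 shared, Gbp2, Aspg and Mrc1 not among them). Same-numbered libraries correlated at -0.07, -0.16, -0.25 and 0.27, so the numbers were not taken to pair the samples. In vehicle mice the count was 141 with DESeq2, 42 with 8 libraries and 63 to 94 with a library left out. DESeq2 called 4 genes in the interaction, 15 in the thalamus and 1 in the hypothalamus, and leaving out libraries gave 0 to 13 in the thalamus. At 3 dpi 5570 genes passed the FDR alone. The time test called 938 to 1445 genes with a library left out. Of 2781 recomputed values of 107 genes, 30 changed sign, none of a called gene, with log2 fold changes with DESeq2 for Atp6ap2 -0.0041; with a choroid plexus score as covariate for Ttr -0.22, Enpp2 -0.11, Atp6ap2 -0.00061; with a thalamus and habenula score as covariate for Ttr -1.07, Enpp2 -0.039; with a fibroblast and matrix score as covariate for Stat2 -0.022, Snap25 0.050, Itm2a -0.034, Pdgfrb -0.0010, Igf2 -0.81, Ttr -2.87, Enpp2 -1.73, Nwd2 -0.26, Cpt1a -0.10, Meg3 -0.092; and without the 3 libraries richest in choroid plexus RNA for Stat2 -0.023, Nwd2 -0.13. With a library left out the log2 fold changes that changed sign ranged over Atp6ap2 -0.019 to 0.025, Meg3 -0.044 to 0.082, Calb1 -0.085 to 0.0025, Stat2 -0.020 to 0.082, Nwd2 -0.10 to 0.12 and Ttr -0.13 to 3.97. The cause was not tested. Of 648 recomputed list medians, 23 moved beyond the spread between replicates, most of them with the fibroblast and matrix score. Over the alternatives the median ranged widest for choroid plexus (-2.20 to 3.62), red cells (1.995 to 4.51) and motile cilia (-0.34 to 1.36). It also moved for T and natural killer cells (0.059 to 1.33), MHC class II (0.23 to 1.23), border macrophages (0.44 to 1.16), interferon response (0.17 to 0.87), fibroblasts and matrix (-0.078 to 0.71), pericytes (-0.047 to 0.72), endothelium (-0.14 to 0.46), reactive astrocytes (0.51 to 1.01), homeostatic astrocytes (0.085 to 0.19), lysosome (0.17 to 0.29), myelin (0.014 to 0.45), thalamus and habenula (0.0034 to 0.57), renin-angiotensin (-0.16 to 0.31), PPAR-gamma (-0.054 to 0.33) and pan-neuronal genes (-0.13 to -0.028). It did not move for the other lists recomputed, among them disease-associated microglia (0.38 to 0.48) and complement (0.52 to 0.78). Medians were recomputed for 27 of the 40 lists only. Sham+CD replicate 1, with the fewest counts, limits the precision of genes of low level.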
